A study of Mus musculus with 11 samples.

Results

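PAD2KO fibroblasts were compared with wild-type (WT) fibroblasts inside the second of the study's 2 batches. The comparison used 5 of the series' 11 bulk RNA sequencing libraries, namely WT 5, WT 6 and WT 7 against PAD2KO 6 and PAD2KO 7, chosen by the batch given in the labels. All are primary fibroblasts of neonatal mouse lung that were separated by flow cytometry before RNA was taken. PAD2KO names the loss of peptidylarginine deiminase 2, encoded by Padi2, and WT has no named alteration. The labels give no strain, sex, exact age, knockout allele, culture time or sorting gate. The title of the series names TNF-induced as well as basal expression, but no label assigns TNF or any other treatment to these libraries. The other 6 libraries (WT 1, WT 3 and WT 4, and PAD2KO 1, PAD2KO 2 and PAD2KO 3) form batch 1 and are used only where the 2 batches are set side by side. Whether libraries of a genotype came from separate animals or cultures is not stated, so a p-value here rests on how these libraries vary, and that variation may be technical.

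Peptidylarginine deiminases convert arginine residues of proteins to citrulline, which removes a positive charge. PAD2 acts on cytoplasmic, extracellular and nuclear proteins, histones among them. Lung fibroblasts build the matrix of the alveolar and airway walls, can take on a contractile state with stress fibres of smooth muscle actin, and answer interferons, TNF and interleukins by switching on defined sets of genes.

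The libraries held 962633 (WT 7) to 1378867 (WT 5) counts on named genes, and 14356 to 14856 named genes had counts in a library. Levels are given as CPM, a gene's count over the library's total of named genes and scaled to counts per 1e+06, and values of a group are always in the order WT 5, WT 6, WT 7 and PAD2KO 6, PAD2KO 7. A count of 0 in a library allows a level of up to 2.18 to 3.12 CPM, and such floors cover counting error only. Between 8.52% and 9.90% of counts fell on Rn18s, which encodes 18S ribosomal RNA, and 3.75% to 4.38% on ribosomal protein genes. Fibroblast genes were abundant in every library: Col1a1, a chain of type I collagen, stood at 1166, 1092 and 1156 CPM in WT and 1329 and 1540.2 CPM in PAD2KO. Summed over 17 fibroblast markers the level was 12941, 12744 and 14202 CPM in WT and 12479 and 11363 CPM in PAD2KO. The 16 epithelial markers summed to 32.2 to 47.6 CPM, with 8 of them at 0 in all 5 libraries, and the 15 endothelial markers to 13.1 to 26.2 CPM. In bulk RNA, fewer cells of a type and less RNA per cell cannot be told apart.

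Padi2 could not check the genotype. It had 1, 2 and 0 counts in the WT libraries and 0 and 4 counts in PAD2KO 6 and PAD2KO 7. Padi6 had 1 count in WT 7 and 1 in PAD2KO 7, and Padi1, Padi3 and Padi4 had none. No family member entered the test.

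Genes called lower in PAD2KO included podoplanin and many interferon-stimulated genes, and genes called higher included many contractile genes. Of 10076 genes tested, 248 (2.46%) passed an adjusted p of 0.05 in edgeR's quasi-likelihood test, 104 higher (1.03%) and 144 lower (1.43%). Among the lower genes the median log2 fold change was -1.26 and 88 fell by more than 2-fold. Among the higher genes the median was 0.82 and 29 rose by more than 2-fold. In all 248 both PAD2KO libraries lay outside the range of the WT libraries. Across all genes tested, 1570 (15.6%) had both PAD2KO libraries above all WT libraries and 1574 (15.6%) had both below. In the same test 1402 of the 10076 genes (13.9%) had an unadjusted p under 0.05.

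The number of calls rested on single libraries and on how gene length was treated. Without PAD2KO 7 the number of called genes was 61, without WT 6 it was 129 and without WT 5 it was 150, while without PAD2KO 6 it was 345. With offsets made from the deposited effective gene lengths, 9 genes passed: Pdpn, Dio2, Tnfrsf1b and Xaf1 lower, and Acta2, Myh11, Mid1, Fhl1 and Lama5 higher. In that fit all 248 kept their sign and 231 had an unadjusted p under 0.05, and the common biological coefficient of variation was 0.221 where it was 0.121 without offsets.

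**Figure D1:**
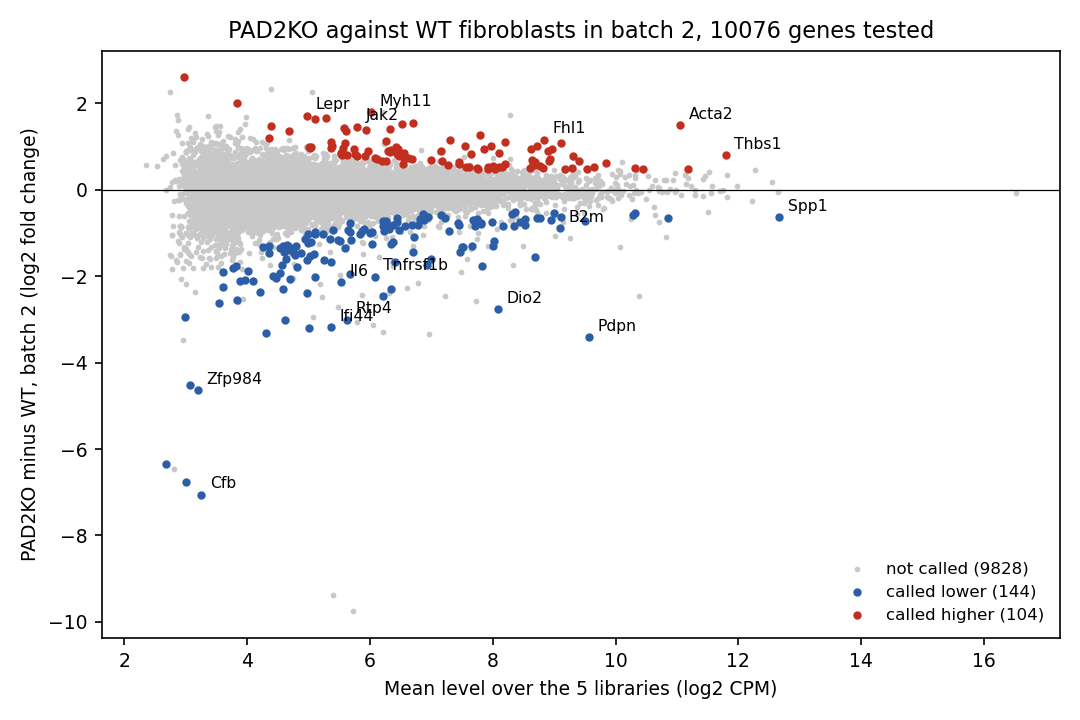
Log2 fold change of PAD2KO over WT in batch 2 against the mean level over the 5 libraries in log2 CPM, 1 point a gene for 10076 genes tested. Blue points are the 144 genes called lower, red points the 104 called higher and grey points the rest; Pdpn and Dio2 lie far below most genes of their level, and Acta2 and Thbs1 are among the called genes of highest CPM.

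PAD2KO 6 and PAD2KO 7 differed from each other. Among 3848 genes with a mean of at least 50 CPM, 47 differed by more than 2-fold between them, 46 of these lower in PAD2KO 7. The WT pairs had 4 such genes (WT 5 and WT 6), 37 (WT 5 and WT 7) and 43 (WT 6 and WT 7). From a WT library to PAD2KO 6 the number was 47 to 113, and to PAD2KO 7 it was 139 to 213. Of the 248 called genes, 197 lay further from the WT mean in PAD2KO 7 than in PAD2KO 6. For the lower genes the median difference from the WT mean on the log2(CPM + 1) scale was -0.99 in PAD2KO 6 and -1.36 in PAD2KO 7, and for the higher genes it was 0.72 and 0.87. These differences share the same WT libraries.

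Genes that interferons switch on were lower in PAD2KO as a group. Type I interferons signal through the kinases Jak1 and Tyk2 to a transcription factor complex that holds STAT2 and IRF9 and binds a short element in the promoters of its targets, and interferon gamma signals through Jak1 and Jak2. Of 71 interferon-stimulated genes listed, 58 were tested, 31 were called lower and none higher, a share of 53.4% called beside 2.46% of all genes. Among the 58 the median log2 fold change was -1.77, all were negative, and 56 had both PAD2KO libraries below all WT libraries. Across all genes tested the median was -0.0032. Leaving out PAD2KO 7 left 13 members called, and length offsets left 1.

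Signal transducers of this list fell with the targets. For Stat2 the levels were 60.9, 62.4 and 91.4 CPM in WT and 24.2 and 12.4 CPM in PAD2KO 6 and PAD2KO 7 (log2 fold change -1.95, SE 0.28, adjusted p = 0.00088). Irf9, its DNA-binding partner, had 83.4, 97.9 and 89.3 CPM in WT and 57.3 and 35.6 CPM in PAD2KO (log2 fold change -0.96, SE 0.20, adjusted p = 0.0109). For both genes the groups did not overlap, and PAD2KO 7 was the lowest library.

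Among the effectors, Rtp4, a transmembrane protein of the antiviral response, had the smallest p of the list. It was measured at 59.5, 73.2 and 90.4 CPM in WT and 11.3 and 6.96 CPM in PAD2KO (log2 fold change -3.00, SE 0.29, adjusted p = 9.63e-06). Ifi44 stood at 50.04, 50.1 and 89.3 CPM in WT and 8.88 and 4.64 CPM in PAD2KO (log2 fold change -3.18, SE 0.38, adjusted p = 0.000301). Both genes had WT 7 highest and PAD2KO 7 lowest. Trim30a, a tripartite-motif protein, had 31.2, 32.4 and 44.7 CPM in WT and 4.84 and 3.87 CPM in PAD2KO (log2 fold change -3.01, SE 0.37, adjusted p = 8.45e-05). Usp18, the protease that removes the ubiquitin-like modifier ISG15 and dampens interferon signalling, had 92.1, 104 and 157 CPM in WT and 25.8 and 21.6 CPM in PAD2KO (log2 fold change -2.29, SE 0.26, adjusted p = 0.000142). Uba7, the enzyme that activates ISG15, fell from 47.6 ± 12.0 to 11.4 ± 1.33 CPM (SD, n = 3 and 2), and its log2 fold change was -2.02 (adjusted p = 0.000694). The modifier Isg15 itself did not pass the test: it had 58.0, 67.1 and 132 CPM in WT and 16.1 and 3.87 CPM in PAD2KO (adjusted p = 0.182), with WT 7 well above the other WT libraries.

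Nucleic acid sensors and interferon-inducible GTPases were also called lower. The RNA sensors Rigi and Ifih1 fell by 0.81 and 1.51 on the log2 scale (adjusted p = 0.0109 and 0.0227). Eif2ak2, the RNA-dependent kinase PKR, had a log2 fold change of -0.94 (adjusted p = 0.0356), and Zbp1, a sensor of Z-form nucleic acids, one of -3.19 (adjusted p = 0.0215). Zbp1 spanned 34.1, 34.7 and 79.0 CPM in WT and 6.46 and 3.87 CPM in PAD2KO, so that the WT libraries themselves differed by more than 2-fold. Of the GTPases, Iigp1 stood at 117, 148 and 145 CPM in WT and 51.7 and 48.7 CPM in PAD2KO (log2 fold change -1.44, SE 0.17, adjusted p = 5.23e-05). Irgm1 and Gbp7 had log2 fold changes of -1.10 (adjusted p = 0.00142) and -2.37 (adjusted p = 0.00141). Oasl2, of the oligoadenylate synthetase family, had 95.01, 91.0 and 141 CPM in WT and 29.1 and 10.1 CPM in PAD2KO (log2 fold change -2.47, SE 0.39, adjusted p = 0.0211). Genes of the Oas, Gbp, Irgm, Iigp and Ifi200 families are close copies of each other, and the authors' estimated counts divide shared reads between them by a model, so single members are uncertain.

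Most other called members belong to the machinery of antiviral states. Parp9 and Dtx3l, which act as a pair in ADP-ribosylation and ubiquitylation, had log2 fold changes of -1.67 (adjusted p = 0.0015) and -1.31 (adjusted p = 0.0215), and their relative Parp14 one of -2.06 (adjusted p = 0.00142). Xaf1, a pro-apoptotic partner of inhibitor-of-apoptosis proteins, stood at 37.0, 46.3 and 41.6 CPM in WT and 16.1 and 12.4 CPM in PAD2KO (log2 fold change -1.54, SE 0.27, adjusted p = 0.00344). With length offsets it was the 1 member that passed, at a log2 fold change of -2.96. Rsad2, the antiviral enzyme viperin, had 16.7, 25.4 and 46.7 CPM in WT and 7.27 and 6.96 CPM in PAD2KO (log2 fold change -1.99, SE 0.46, adjusted p = 0.0361). Both genes were under their lowest WT level in either PAD2KO library. Samd9l and Slfn2, which restrain translation or growth, had log2 fold changes of -1.47 (adjusted p = 0.0109) and -1.17 (adjusted p = 0.0311), and Ifi203 and Ifi204, of the DNA-binding Ifi200 family, of -2.09 (adjusted p = 0.0252) and -1.93 (adjusted p = 0.0109). Among members that did not pass were Ifit1, at 64.5, 80.2 and 164 CPM in WT and 12.9 and 10.1 CPM in PAD2KO (adjusted p = 0.141), Irf7 (adjusted p = 0.261) and Bst2 (adjusted p = 0.125). For Ifit1 the WT libraries spanned more than 2-fold, and both PAD2KO libraries were under the lowest of them.

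Some members were near 0 in PAD2KO. Mx2, a dynamin-like GTPase, had 40 counts over the WT libraries and 1 over the PAD2KO libraries, a ratio of 27.8 with an exact 95% interval of 4.72 to 1127 that covers counting error only. Ddx60, a helicase, had 35 and 3 counts, a ratio of 8.12 (interval 2.56 to 41.3). Oas1g, which is not in the list and is named for its 0 counts in both PAD2KO libraries, was at least 3.49-fold lower, taken against a floor of 3 counts per library, on average 2.37 CPM.

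**Figure D2:**
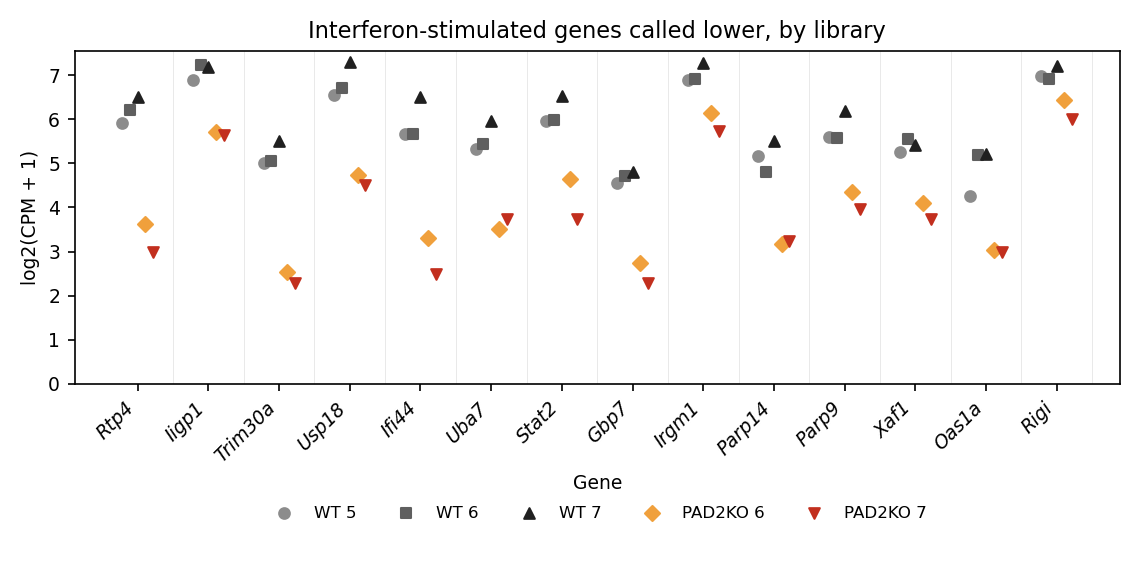
Level of 14 interferon-stimulated genes called lower, in order of p, as log2(CPM + 1) in each library of batch 2; grey to black symbols are WT and orange and red symbols PAD2KO. For every gene shown both PAD2KO libraries sit below all WT libraries, and for Ifi44, Usp18 and Stat2 WT 7 sits above WT 5 and WT 6.

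Promoters were searched for the sequence that the complex holding STAT2 and IRF9 binds. This interferon-stimulated response element was written as GAAANNGAAA on both strands in RefSeq promoters of the GRCm38.p6 assembly, from 250 bases before to 50 after the start site. It was present in 1079 of 27025 promoters (3.99%), in 3.69% of those of tested genes, in 24 of 107 promoters of genes called lower (22.4%) and in 3 of 81 of genes called higher (3.70%). Among the called members of the interferon list 11 of 21 with a promoter held it (52.4%), close to the 21 of 44 (47.7%) of all tested members, and among lower genes outside that list 13 of 86 (15.1%). Those 13 are B2m, Tnfrsf1b, Spp1, Tgfbi, Ifi211, Slfn8, Slfn9, Apol9b, Oas1g, Ncoa4, Kif1a, Selenop and Dhrs3. The list is not complete, so a gene outside it may still be interferon-stimulated. A match describes letters in this window and is not evidence of binding. The promoters of the 4 called members of lowest p with a match are shown with the element in capitals. They are written 5′ to 3′ on the strand of the gene.
Trim30a (chr7:104446076-104446375, minus strand): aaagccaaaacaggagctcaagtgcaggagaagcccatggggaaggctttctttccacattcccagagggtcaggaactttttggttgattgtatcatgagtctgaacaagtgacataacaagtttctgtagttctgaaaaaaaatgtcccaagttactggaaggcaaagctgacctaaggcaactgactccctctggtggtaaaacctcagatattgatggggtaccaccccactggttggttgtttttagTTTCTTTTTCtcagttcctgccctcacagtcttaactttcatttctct
Stat2 (chr10:128270248-128270547, plus strand): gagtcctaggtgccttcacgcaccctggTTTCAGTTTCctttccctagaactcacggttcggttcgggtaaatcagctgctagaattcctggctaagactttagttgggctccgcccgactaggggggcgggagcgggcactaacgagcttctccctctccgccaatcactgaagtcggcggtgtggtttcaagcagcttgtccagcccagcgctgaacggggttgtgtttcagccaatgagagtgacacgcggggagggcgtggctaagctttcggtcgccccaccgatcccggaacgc
Gbp7 (chr3:142530086-142530385, plus strand): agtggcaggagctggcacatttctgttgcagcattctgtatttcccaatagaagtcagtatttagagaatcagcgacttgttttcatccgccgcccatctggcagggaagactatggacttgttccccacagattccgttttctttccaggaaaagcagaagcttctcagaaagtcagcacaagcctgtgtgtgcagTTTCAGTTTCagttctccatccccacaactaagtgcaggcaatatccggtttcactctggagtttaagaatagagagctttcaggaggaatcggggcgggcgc
Irgm1 (chr11:48871371-48871670, minus strand): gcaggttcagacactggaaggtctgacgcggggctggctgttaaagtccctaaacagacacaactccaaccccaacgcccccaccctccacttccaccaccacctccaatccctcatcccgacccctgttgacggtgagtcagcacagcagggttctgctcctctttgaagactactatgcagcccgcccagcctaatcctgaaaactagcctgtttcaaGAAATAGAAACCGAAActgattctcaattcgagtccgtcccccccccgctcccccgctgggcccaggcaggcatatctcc
The element began 2 bases after the start site in Trim30a, 222 bases before it in Stat2 and 53 bases before it in Gbp7. Irgm1 held 2 overlapping copies, which began 30 and 24 bases before the start site. The levels of these genes in PAD2KO were 4.84 and 3.87 CPM (Trim30a), 24.2 and 12.4 CPM (Stat2), 5.65 and 3.87 CPM (Gbp7) and 69.4 and 52.6 CPM (Irgm1), all under their lowest WT library.

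Among the ligands, receptors and kinases upstream, 1 gene passed, and it was higher. Of 30 such genes 15 were tested, and the share called was 6.67% beside 2.46% of all genes. Jak2, the kinase of the receptors for interferon gamma, growth hormone and leptin, stood at 23.9, 39.3 and 30.1 CPM in WT and 88.8 and 82.7 CPM in PAD2KO (log2 fold change 1.46, SE 0.21, adjusted p = 0.000482). Both PAD2KO libraries were more than 2-fold above every WT library. The median over the 15 was -0.11, and no member was called lower in the main fit. In DESeq2, with a spread shared by 11 libraries or with no count filter, 1 member was called lower. Socs2, which damps signalling of the growth hormone receptor and is named after its values were seen, was called higher too, with a log2 fold change of 0.78 (adjusted p = 0.0396).

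Class I antigen presentation was lower in part. Of 17 genes tested in this list 4 were called (23.5% beside 2.46% of all genes), all lower, with 1 called without PAD2KO 7 and 0 with length offsets. The median was -0.70, with 15 of 17 negative. B2m, the light chain shared by class I molecules, stood at 603, 634 and 753 CPM in WT and 394 and 322 CPM in PAD2KO (log2 fold change -0.89, SE 0.14, adjusted p = 0.000998). The heavy chain gene H2-K1 had 133, 166 and 200.5 CPM in WT and 51.7 and 47.2 CPM in PAD2KO (log2 fold change -1.74, SE 0.19, adjusted p = 3.57e-05), and H2-D1 had 229.9, 289.9 and 424 CPM in WT and 96.1 and 87.4 CPM in PAD2KO (log2 fold change -1.77, SE 0.27, adjusted p = 0.022). Here PAD2KO 6 and PAD2KO 7 were close together and the WT libraries spread, with WT 7 highest. Psmb8, an immunoproteasome subunit, fell by 1.63 on the log2 scale (adjusted p = 0.00399). The peptide transporter Tap1, at 27.6, 20.04 and 31.2 CPM in WT and 12.9 and 10.8 CPM in PAD2KO, did not pass (adjusted p = 0.0668), nor did H2-T22 and H2-T23 (adjusted p = 0.0586 and 0.0707). Heavy chain genes of this region resemble each other and their counts may borrow from one another.

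Leukocyte markers summed to less in PAD2KO, but only 2 of 5 tested had both PAD2KO libraries below all WT libraries. Summed over 21 leukocyte and macrophage markers the level was 263, 272 and 434 CPM in WT and 180.0 and 104 CPM in PAD2KO. Of these markers 4 were at 0 in all 5 libraries. Of the 5 tested 1 was called (20% beside 2.46% of all genes). That gene was Cd14, the lipopolysaccharide co-receptor, which fibroblasts can also express, at 78.3, 56.3 and 75.8 CPM in WT and 42.8 and 29.4 CPM in PAD2KO (log2 fold change -0.96, SE 0.22, adjusted p = 0.022). Adgre1, the macrophage antigen F4/80, had 0, 3.08 and 43.6 CPM in WT and 13.7 and 0.773 CPM in PAD2KO, and Lyz2, a lysozyme of myeloid cells, had 26.8, 37.0 and 159 CPM in WT and 42.0 and 30.2 CPM in PAD2KO. WT 7 was the highest library for both. Neither passed the test, and the part of such cells in the lower interferon-stimulated genes was not tested. Without WT 7, 33 interferon-stimulated genes were called lower, a count that does not measure the part of such cells.

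TNF and NF-kB response genes were far lower in PAD2KO 7 than in PAD2KO 6, and few passed the test of genotype. Of 33 tested, 1 was called higher and 2 lower (9.09% beside 2.46% of all genes), and the median was -0.66 with 31 negative. Against the WT mean, the median was -0.18 in PAD2KO 6 and -1.18 in PAD2KO 7. With PAD2KO 7 as the lone knockout library, assumed to vary as the WT libraries do, 17 members were called lower, and with PAD2KO 6 alone 3 were. Il6, the cytokine interleukin 6, stood at 57.3, 74.0 and 61.3 CPM in WT and 18.6 and 10.8 CPM in PAD2KO (log2 fold change -2.13, SE 0.26, adjusted p = 8.39e-05). Tnfrsf1b, TNF receptor 2, had 84.1, 82.5 and 118 CPM in WT and 25.0 and 21.6 CPM in PAD2KO (log2 fold change -2.01, SE 0.23, adjusted p = 3.57e-05). Both were low in either knockout library and did not overlap with WT. Tnfrsf1b lies 22 tested genes after Padi2 on chromosome 4. Csf1, the macrophage growth factor, rose from 206 ± 16.4 to 367 ± 112 CPM (SD, n = 3 and 2), with a log2 fold change of 0.84 (adjusted p = 0.0171). It was not called when WT 5, WT 6 or WT 7 was left out.

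The acute-phase genes and chemokines show the gap between the knockout libraries most plainly. Saa3, serum amyloid A3, stood at 1362, 1691 and 2825 CPM in WT, 689 CPM in PAD2KO 6 and 25.5 CPM in PAD2KO 7. Lcn2, the iron-scavenging lipocalin 2, had 109.5, 155 and 322 CPM in WT and 37.1 and 1.55 CPM in PAD2KO. Cxcl5, a neutrophil chemokine, had 87.0, 146 and 112 CPM in WT and 42.8 and 1.55 CPM in PAD2KO. In these 3 genes PAD2KO 7 was far below PAD2KO 6, which was itself below the WT libraries. C3, the central complement component, had 258, 268 and 242 CPM in WT and 156 and 15.5 CPM in PAD2KO. Steap4, a metalloreductase, had 116, 153 and 149 CPM in WT and 51.7 and 6.19 CPM in PAD2KO. None of the 5 passed the test (adjusted p = 0.604, 0.387, 0.45, 0.595 and 0.36 in this order).

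For 2 chemokines PAD2KO 6 lay inside the WT range and PAD2KO 7 outside it. Ccl2, which draws monocytes, stood at 1258, 1479 and 1511 CPM in WT and 1484 and 294 CPM in PAD2KO (adjusted p = 0.818). Cxcl1, which draws neutrophils, had 66.0, 111 and 94.5 CPM in WT and 99.3 and 10.8 CPM in PAD2KO (adjusted p = 0.837). Their fitted difference was negative with both knockout libraries and positive without PAD2KO 7. Of 10 chemokines tested none was called and none had an unadjusted p under 0.05, nor was any called by limma-voom (10 tested) or DESeq2 (8 tested). Without robust estimation 1 was called lower, with no count filter 1 of 23, and without PAD2KO 6 5 of 13. Of the 10, 8 were negative, and the median was 0.08 in PAD2KO 6 and -1.62 in PAD2KO 7. Gbp3 and Ifitm1, which are interferon-inducible, completed the 8 genes of at least 50 CPM that lay furthest down in PAD2KO 7 against PAD2KO 6, at 27.4 and 3.87 CPM and 59.7 and 10.8 CPM. In the other direction Rps27, a ribosomal protein gene with close copies in the genome, had 60.5 and 206 CPM, with 226, 257 and 324 CPM in WT. The next largest differences of that direction were those of Nav2, Glipr1, Sap18, Eno3, Gm4202, Sema3e and Dennd2b, each under 2-fold.

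Complement genes had 1 call among 14 tested (7.14% beside 2.46%), 2 without WT 7, 6 of 18 without PAD2KO 6, and 0 in DESeq2 or with length offsets. Cfb, factor B of the alternative pathway, had 10.9, 13.1 and 16.6 CPM in WT and 0 counts in both PAD2KO libraries, so it was at least 5.71-fold lower (adjusted p = 0.00131). The list median was -0.70, with -0.22 in PAD2KO 6 and -1.14 in PAD2KO 7. Of the interleukin and receptor genes, 21 were tested and Il6 and Lifr passed (9.52% beside 2.46%), in opposite directions. Lifr, the receptor of leukaemia inhibitory factor, had a log2 fold change of 0.72 (adjusted p = 0.0276).

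Prostaglandin genes had 4 calls among 11 tested (36.4% beside 2.46%), all lower, with a median of -0.57. The number was 1 without PAD2KO 7, 2 without WT 5 or WT 6, 2 in DESeq2 or limma-voom, and 0 with length offsets. Pla2g4a, the cytosolic phospholipase A2 that frees arachidonic acid, stood at 408, 456 and 416 CPM in WT and 304 and 227 CPM in PAD2KO (log2 fold change -0.69, SE 0.14, adjusted p = 0.009). Ptgis, prostacyclin synthase, had 242, 234 and 313 CPM in WT and 131 and 82.7 CPM in PAD2KO (log2 fold change -1.30, SE 0.19, adjusted p = 0.0021). Ptgfr, the prostaglandin F receptor, and Slco2a1, a prostaglandin transporter, fell by 2.61 and 0.57 on the log2 scale (adjusted p = 0.00902 and 0.0453). In each of these genes the groups did not overlap, and Ptgfr was low throughout, at 17.4, 14.6 and 12.5 CPM in WT and 2.42 and 2.32 CPM in PAD2KO.

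**Figure D3:**
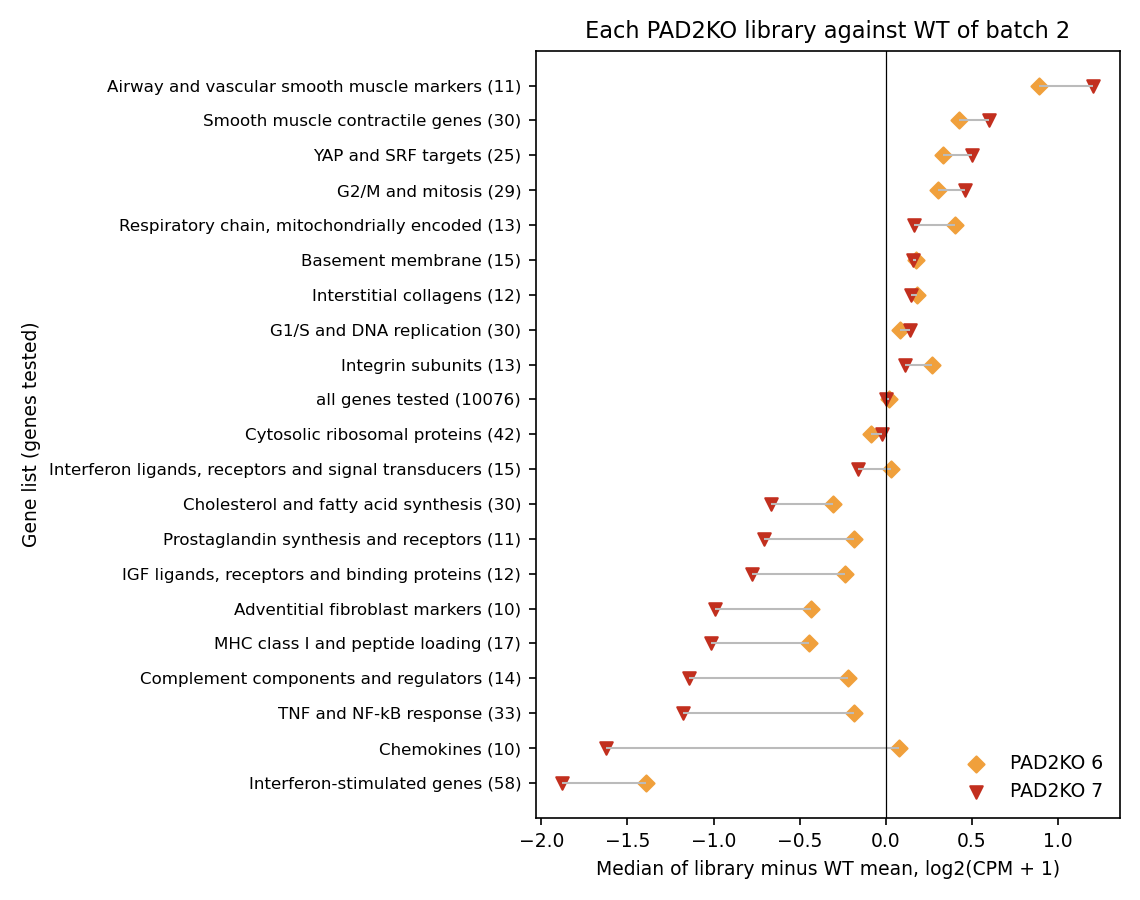
Median difference of each PAD2KO library from the mean of the 3 WT libraries, on the log2(CPM + 1) scale, for 20 gene lists and all genes tested; orange diamonds are PAD2KO 6 and red triangles PAD2KO 7, and both share the WT libraries. Interferon-stimulated genes lie at -1.40 and -1.88 and contractile genes at 0.42 and 0.60, while chemokines lie at 0.08 and -1.62.

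Contractile genes were higher in both PAD2KO libraries. Stress fibres and smooth muscle filaments are built from actin, myosin II and tropomyosin, with calponin, transgelin and vinculin at their sides and ends. Of 30 members tested 11 were called higher and none lower (36.7% beside 2.46%). The median log2 fold change was 0.48, all 30 were positive, and 27 had both PAD2KO libraries above all WT libraries. Leaving out PAD2KO 7 left 6 called, and length offsets left 2, Acta2 and Myh11.

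Acta2, alpha smooth muscle actin, stood at 1326, 1229.6 and 1088 CPM in WT and 2992 and 3851 CPM in PAD2KO (log2 fold change 1.49, SE 0.13, adjusted p = 3.45e-06). Myh11, the smooth muscle myosin heavy chain, had 31.9, 32.4 and 29.1 CPM in WT and 98.5 and 118 CPM in PAD2KO (log2 fold change 1.79, SE 0.18, adjusted p = 1.73e-05). Cnn1, calponin 1, had 154, 137 and 126 CPM in WT and 316 and 352 CPM in PAD2KO (log2 fold change 1.26, SE 0.13, adjusted p = 2.01e-05). In each the WT libraries were within a narrow range and both PAD2KO libraries were more than 2-fold above it. Myl9, a myosin regulatory light chain, had 399.6, 331 and 319 CPM in WT and 601 and 709 CPM in PAD2KO (log2 fold change 0.90, SE 0.13, adjusted p = 0.000585). Vcl, vinculin, which couples actin to integrin adhesions, had 383, 387 and 313 CPM in WT and 606 and 773 CPM in PAD2KO (log2 fold change 0.93, SE 0.14, adjusted p = 0.0007). Tagln, transgelin, rose from 198 ± 37.6 to 425 ± 102 CPM, and Mylk, the kinase of myosin light chains, from 173 ± 47.2 to 352 ± 54.6 CPM (SD, n = 3 and 2). Tpm1 and Tpm2, tropomyosins, had log2 fold changes of 0.48 (adjusted p = 0.0497) and 0.70 (adjusted p = 0.00647), Smtn, smoothelin, one of 0.64 (adjusted p = 0.0123) and Itga8, an integrin subunit of smooth muscle and myofibroblasts, one of 0.92 (adjusted p = 0.0109). PAD2KO 7 was the highest library for all but Smtn.

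**Figure D4:**
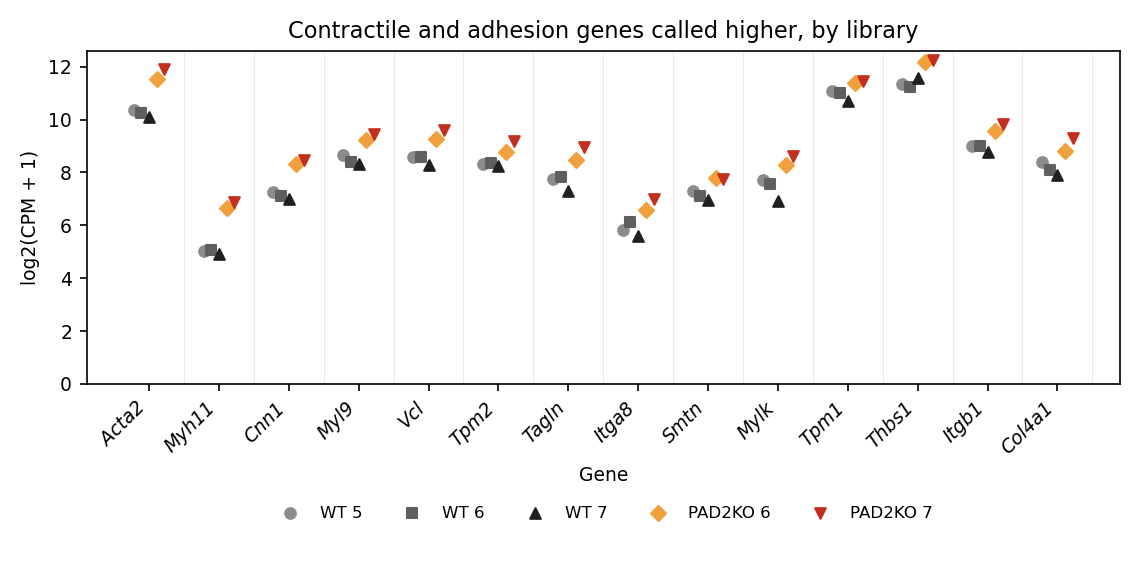
Level of the 11 contractile genes called higher and of Thbs1, Itgb1 and Col4a1, as log2(CPM + 1) in each library of batch 2; grey to black symbols are WT and orange and red symbols PAD2KO. Both PAD2KO libraries sit above all WT libraries for every gene shown.

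Serum response factor acts on many contractile genes through the CArG box. That motif was written as CCWWWWWWGG, with W for A or T, and no mismatch was allowed. It was found, on both strands and in the same promoter window, in 1.81% of all promoters and 1.55% of those of tested genes. It was present in 2 of 9 promoters of called contractile genes (22.2%) and 4 of 27 of all contractile genes tested (14.8%), in 3 of 81 of all genes called higher (3.70%) and in none of 107 of genes called lower. The 2 contractile promoters are shown with the motif in capitals, from RefSeq on GRCm38.p6 and 5′ to 3′ on the strand of the gene.
Myl9 (chr2:156775214-156775513, plus strand): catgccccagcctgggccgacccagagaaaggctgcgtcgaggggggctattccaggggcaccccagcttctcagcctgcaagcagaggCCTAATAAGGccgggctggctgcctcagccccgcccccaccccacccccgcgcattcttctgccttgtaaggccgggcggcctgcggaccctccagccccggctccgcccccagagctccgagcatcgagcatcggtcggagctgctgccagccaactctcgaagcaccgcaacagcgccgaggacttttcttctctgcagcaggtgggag
Vcl (chr14:20929148-20929447, plus strand): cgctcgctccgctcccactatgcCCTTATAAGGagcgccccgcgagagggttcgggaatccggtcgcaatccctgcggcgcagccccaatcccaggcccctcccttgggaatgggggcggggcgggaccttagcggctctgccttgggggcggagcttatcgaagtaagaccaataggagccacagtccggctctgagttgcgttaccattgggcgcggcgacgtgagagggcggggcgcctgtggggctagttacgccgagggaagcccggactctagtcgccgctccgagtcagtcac
The motif began 161 bases before the start site in Myl9 and 227 bases before it in Vcl. The other called contractile genes with a promoter held no exact match in this window, which says nothing of variants of the motif or of sites elsewhere.

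Smooth muscle marker genes overlap this list. Summed over 14 markers of airway and vascular smooth muscle, the level was 2185, 2061 and 1671 CPM in WT and 4414 and 5562 CPM in PAD2KO. Of 11 tested 6 were called higher (54.5% beside 2.46% of all genes), all of them also in the contractile list. The number was 5 without WT 5 or WT 6, 6 without WT 7 and 2 with length offsets. Pericyte markers summed to 550.5, 575 and 586 CPM in WT and 492 and 539 CPM in PAD2KO. None of 6 tested was called by edgeR, DESeq2 or limma-voom. In edgeR 3 of the 6 had an unadjusted p under 0.05, beside 13.9% of all genes. Whether more cells of a smooth muscle kind or more of these mRNAs per fibroblast underlie the higher levels cannot be told apart. Other fibroblast states were measured by their own markers. Myofibroblast markers summed to 3547, 3428 and 3847 CPM in WT and 4288 and 4747 CPM in PAD2KO. The 1 called of 7 tested (14.3% beside 2.46%) was Ednrb, an endothelin receptor, which was lower (log2 fold change -1.29, adjusted p = 0.0345). Alveolar fibroblast markers summed to 846, 909 and 896 CPM in WT and 919 and 981 CPM in PAD2KO. The 1 called of 9 tested (11.1% beside 2.46%) was Limch1, which was higher. Of the general fibroblast markers tested 21.4% were called, beside 2.46% of all genes. Thy1, a surface glycoprotein, was higher (log2 fold change 0.85, adjusted p = 0.00608), and Col3a1 and Dcn were lower. Adventitial fibroblast markers summed to less in PAD2KO, from 1339, 1415 and 1501 CPM in WT to 887 and 561 CPM in PAD2KO. Of 10 tested 1 was called (10% beside 2.46%). That gene was Dcn, the proteoglycan decorin, at 472, 574 and 620.2 CPM in WT and 239 and 139.9 CPM in PAD2KO (log2 fold change -1.56, SE 0.22, adjusted p = 0.00727). Il33, an alarmin of adventitial cells, had 290.1, 322 and 189 CPM in WT and 171 and 75.0 CPM in PAD2KO and did not pass (adjusted p = 0.433).

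Targets of YAP and serum response factor had 4 calls among 25 tested (16.0% beside 2.46%), all higher, with a median of 0.45 and 23 positive. The number was 2 without PAD2KO 7, 7 without PAD2KO 6 and 0 with length offsets. Ccn1, a matricellular protein, stood at 838, 779 and 620.2 CPM in WT and 1117 and 1182 CPM in PAD2KO (log2 fold change 0.62, SE 0.13, adjusted p = 0.013). F3, tissue factor, had 142, 124 and 124 CPM in WT and 245 and 278 CPM in PAD2KO (log2 fold change 1.00, SE 0.13, adjusted p = 0.000206). Ankrd1, a classical YAP target, had a log2 fold change of 0.86 (adjusted p = 0.00854), and Vcl is given with the contractile genes. Of the immediate early genes, 2 of 21 tested were called higher (9.52% beside 2.46%). They were Ier2 (log2 fold change 0.89, adjusted p = 0.0109) and Dusp1 (log2 fold change 0.48, adjusted p = 0.0339), a phosphatase of MAP kinases.

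Integrins had 4 calls among 13 tested (30.8% beside 2.46% of all genes), all higher. The number was 2 without WT 5, and 0 without PAD2KO 7 or with length offsets. Itgb1, the beta 1 chain common to collagen and fibronectin receptors, stood at 505, 516 and 435 CPM in WT and 764 and 900.0 CPM in PAD2KO (log2 fold change 0.78, SE 0.13, adjusted p = 0.00161). Itga1, a collagen-binding alpha chain, had 16.0, 23.1 and 12.5 CPM in WT and 42.8 and 65.7 CPM in PAD2KO (log2 fold change 1.63, SE 0.27, adjusted p = 0.00261). Both PAD2KO libraries were above all WT libraries, Itga1 by the wider margin on the log2 scale. Itga5, of the fibronectin receptor, had a log2 fold change of 0.51 (adjusted p = 0.0403). The median over the 13 was 0.14.

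Matrix genes changed in both directions. Basement membrane genes had 3 calls among 15 tested (20% beside 2.46%), 0 without PAD2KO 7 and 1 with length offsets. All 3 were higher: Col4a1 (log2 fold change 0.94, adjusted p = 0.00793) and Col4a2 (log2 fold change 1.01, adjusted p = 0.00694), the common chains of type IV collagen, and Lama5 (log2 fold change 0.69, adjusted p = 0.0213), a laminin chain, whose log2 fold change was 2.16 with length offsets. Col4a1 stood at 331, 272 and 239 CPM in WT and 448 and 634 CPM in PAD2KO. Among interstitial collagens, with no call without WT 5, WT 6 or PAD2KO 7, Col5a2 was higher (log2 fold change 0.51, adjusted p = 0.0303) and Col3a1 lower (log2 fold change -0.54, adjusted p = 0.0186), with a median of 0.09 over 12 tested. Col3a1, the main chain of type III collagen, had 1430.2, 1361 and 1539.5 CPM in WT and 964 and 1017 CPM in PAD2KO, while Col1a1 did not pass (adjusted p = 0.179). The share called among interstitial collagens was 16.7%, beside 2.46% of all genes. Collagen crosslinking and hydroxylation enzymes had no call among 17 tested by edgeR, DESeq2 or limma-voom, with 2 at an unadjusted p under 0.05, and a median of 0.049.

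The called genes of highest CPM, a scale that is not per gene length, were mostly secreted or cytoskeletal. Thbs1, thrombospondin 1, an activator of latent TGF-beta, stood at 2622, 2428 and 3050.0 CPM in WT and 4598 and 4825 CPM in PAD2KO (log2 fold change 0.80, SE 0.12, adjusted p = 0.000937). Spp1, osteopontin, had 7461, 7096 and 7952 CPM in WT and 5608 and 4066 CPM in PAD2KO (log2 fold change -0.64, SE 0.13, adjusted p = 0.0125). These 2 matricellular genes moved in opposite directions, and neither group overlapped the other. Igfbp5, a binding protein of insulin-like growth factors, had 1827, 2256 and 2346 CPM in WT and 1537 and 1198 CPM in PAD2KO (log2 fold change -0.65, SE 0.14, adjusted p = 0.0168). Ctsl, the lysosomal protease cathepsin L, fell by 0.58 on the log2 scale (adjusted p = 0.0246). S100a6 and Anxa2, calcium-binding proteins, had log2 fold changes of 0.47 (adjusted p = 0.04) and 0.50 (adjusted p = 0.0485). The other genes of this rank, Acta2, Tpm1, Col3a1 and Ccn1, are given with their groups. Of the remaining matrix lists, Ltbp2 (log2 fold change 0.65, adjusted p = 0.0101) and Prelp (log2 fold change 1.36, adjusted p = 0.0109) were higher, and Timp1 (log2 fold change -0.54, adjusted p = 0.0276) and Adamts15 (log2 fold change -1.37, adjusted p = 0.0354) lower.

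Growth factor lists apart from the IGF list held 3 calls or fewer each. The share called was 15.8% in the TGF-beta list, 10.5% in the BMP list and 10% in the PDGF, FGF, HGF and VEGF list. In the list of TNF receptors and ligands it was 14.3%, beside 2.46% of all genes. Of 12 IGF genes tested 4 were called (33.3% beside 2.46%), with a median of -0.40. The number was 2 without WT 6, and 0 without PAD2KO 7 or with length offsets. All 4 were lower: Igfbp3 (log2 fold change -1.47, adjusted p = 0.0168), Igfbp4 (log2 fold change -0.73, adjusted p = 0.0254), Igfbp5, and Pappa (log2 fold change -1.62, adjusted p = 0.0028), a protease that cleaves IGF-binding proteins. Pappa stood at 49.3, 50.1 and 50.9 CPM in WT and 22.6 and 10.1 CPM in PAD2KO, and PAD2KO 7 was the lower of the pair. Bmp4, a bone morphogenetic protein, had 48.6, 49.3 and 40.5 CPM in WT and 116 and 129.9 CPM in PAD2KO (log2 fold change 1.40, SE 0.17, adjusted p = 5.23e-05), and Fst, follistatin, a BMP and activin antagonist, had a log2 fold change of 0.59 (adjusted p = 0.0303). Hgf, hepatocyte growth factor, was lower (log2 fold change -0.66, adjusted p = 0.0171) and Dusp6, a phosphatase induced by ERK, higher (log2 fold change 0.54, adjusted p = 0.0254). In the TGF-beta list, Tgfbr3 (log2 fold change -0.84, adjusted p = 0.00647) and Tgfbi (log2 fold change -1.20, adjusted p = 0.0372) were lower. No gene of 14 tested in the Wnt list was called by edgeR, DESeq2 or limma-voom. In edgeR 6 of the 14 had an unadjusted p under 0.05, beside 13.9% of all genes. Of 25 mesenchymal transcription factors tested only Snai2 was called (4% beside 2.46%), with a log2 fold change of 0.82 (adjusted p = 0.0372). Tnfrsf11b, the decoy receptor osteoprotegerin, had 23.2, 22.4 and 11.4 CPM in WT and 54.9 and 68.8 CPM in PAD2KO (log2 fold change 1.66, SE 0.25, adjusted p = 0.000937).

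Lipid synthesis genes had negative differences of modest size throughout. Of 30 cholesterol and fatty acid synthesis genes tested, 5 were called lower and none higher (16.7% beside 2.46% of all genes). The number was 2 in DESeq2 or without robust estimation, and 0 with length offsets. All 30 were negative, and the median log2 fold change was -0.49 (-0.31 in PAD2KO 6 and -0.67 in PAD2KO 7). In 22 both PAD2KO libraries were below all WT libraries. Scd1, a desaturase that makes monounsaturated fatty acids, stood at 383, 377 and 401 CPM in WT and 232 and 203 CPM in PAD2KO (log2 fold change -0.83, SE 0.13, adjusted p = 0.000908). Its paralogue Scd2 had 499, 505 and 503 CPM in WT and 333 and 309 CPM in PAD2KO (log2 fold change -0.65, SE 0.12, adjusted p = 0.00572). For both the WT libraries were within a narrow range, and both PAD2KO libraries were below it. Srebf2, the transcription factor of the cholesterol pathway, fell by 0.63 (adjusted p = 0.0322), and the pathway enzymes Idi1 and Cyp51 fell by 0.68 and 0.57 (adjusted p = 0.0303 and 0.0372), all on the log2 scale. Hmgcs1, at 195, 180.4 and 187 CPM in WT and 151 and 117 CPM in PAD2KO, did not pass (adjusted p = 0.0762). The 5 calls became 1 without PAD2KO 7, 2 without WT 5 or WT 6, and 10 without PAD2KO 6.

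Lipid handling genes outside that list were also among the calls; they are named after their values were seen. Abca1, the exporter of cholesterol to lipoproteins, stood at 235, 248 and 267 CPM in WT and 161 and 117 CPM in PAD2KO (log2 fold change -0.85, SE 0.15, adjusted p = 0.00339). Npc2, which carries cholesterol in lysosomes, and Apoe, apolipoprotein E, fell by 0.62 and 0.75 on the log2 scale (adjusted p = 0.0109 and 0.0109). Abhd5, a cofactor of triglyceride lipase, and Dgat2, which makes triglyceride, had log2 fold changes of -0.82 (adjusted p = 0.00638) and -1.35 (adjusted p = 0.0255). Gla, the lysosomal alpha-galactosidase, had 109, 102 and 103 CPM in WT and 43.6 and 47.2 CPM in PAD2KO (log2 fold change -1.20, SE 0.17, adjusted p = 0.000409), more than 2-fold lower in both PAD2KO libraries.

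The 2 cell cycle lists had 2 calls, both in the G2/M list, and called genes outside these lists are not counted here. Of 29 G2/M genes tested 2 were called higher (6.90% beside 2.46%), 0 without PAD2KO 7, with length offsets or with the spread shared over 11 libraries, and 1 without WT 5, WT 6 or PAD2KO 6. The 2 were Anln (log2 fold change 0.90, adjusted p = 0.00399), which builds the contractile ring, and Ccnb1 (log2 fold change 0.53, adjusted p = 0.0411), cyclin B1. Of the 29, 27 were positive, with a median of 0.35. Aurka, the mitotic kinase Aurora A, stood at 48.6, 48.6 and 50.9 CPM in WT and 72.7 and 82.7 CPM in PAD2KO and did not pass (adjusted p = 0.0527). Of 30 G1/S genes 2 had an unadjusted p under 0.05 in edgeR, beside 13.9% of all genes, and the list median was 0.08. None of the 30 was called by edgeR, DESeq2 or limma-voom. Glycolysis, the unfolded protein response and p53 targets had no calls by these tools among 27, 22 and 18 genes tested, with 3, 1 and 3 at an unadjusted p under 0.05. The nuclear and the mitochondrially encoded respiratory chain had none among 31 and 13, with 1 and 1 at an unadjusted p under 0.05. Of 42 ribosomal protein genes none passed in edgeR or limma-voom, and 1 did in DESeq2, which was also the number at an unadjusted p under 0.05 in edgeR. The mitochondrially encoded mRNAs had a median of 0.27, all 13 positive, and WT 7 was the lowest library, with a sum of 12089 CPM beside 18358 to 21436 CPM in the other 4. In the stress lists Slc7a11 (log2 fold change -1.31, adjusted p = 0.0356), the cystine importer, and Mt1 (log2 fold change -1.31, adjusted p = 0.0479), metallothionein 1, were lower.

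The gene with the smallest p was podoplanin, a membrane mucin of lung epithelium, lymphatic vessels and stromal cells. Pdpn stood at 1142, 1332 and 1042 CPM in WT and 109 and 111 CPM in PAD2KO (log2 fold change -3.42, SE 0.15, adjusted p = 4.17e-11). PAD2KO 6 and PAD2KO 7 were nearly equal, and both were far below every WT library. Dio2, the deiodinase that activates thyroid hormone, had 414, 391 and 419 CPM in WT and 87.2 and 34.0 CPM in PAD2KO (log2 fold change -2.76, SE 0.34, adjusted p = 0.0212), with closely spaced WT libraries and PAD2KO 7 the lower of the pair. Zfp984, a zinc finger gene, had 45 counts over the WT libraries and 1 over the PAD2KO libraries, a ratio of 31.3 (exact 95% interval 5.34 to 1264). Gm19680 had 39 and 0, at least 4.65-fold lower. Fbxo44, an F-box protein, A930037H05Rik, and Pcdhgc4, a protocadherin, completed the 15 largest falls, with log2 fold changes of -3.31 (adjusted p = 0.000115), -2.55 (adjusted p = 0.00608) and -2.38 (adjusted p = 0.0291). Pcdhgc4 varied among the WT libraries, at 47.9, 59.4 and 19.7 CPM.

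The largest rises included several signalling genes. Gnat1, a G protein alpha subunit, had 3.63, 6.94 and 6.23 CPM in WT and 16.1 and 28.6 CPM in PAD2KO (log2 fold change 2.01, SE 0.41, adjusted p = 0.0109), low levels near the floor in WT 5. Lepr, the leptin receptor, had 15.2, 18.5 and 11.4 CPM in WT and 40.4 and 60.3 CPM in PAD2KO (log2 fold change 1.71, SE 0.27, adjusted p = 0.00134). Mid1, a microtubule-associated ubiquitin ligase, had 41.3, 60.1 and 51.9 CPM in WT and 136 and 156 CPM in PAD2KO (log2 fold change 1.52, SE 0.17, adjusted p = 3.57e-05). Mid1 was more than 2-fold above every WT library in both. Galnt18, a glycosyltransferase, had 49.3, 63.2 and 60.3 CPM in WT and 137 and 195 CPM in PAD2KO (log2 fold change 1.53, SE 0.18, adjusted p = 5.23e-05). Limch1, an activator of myosin II, Irag1, a substrate of cGMP-dependent kinase, and the secreted proteases Prss23 and Htra1 had log2 fold changes of 1.48 (adjusted p = 0.00991), 1.43 (adjusted p = 0.00647), 1.38 (adjusted p = 0.0198) and 1.35 (adjusted p = 0.0173). The other genes of the 15 are given above.

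Calls near Padi2 were mostly lower. Among the 100 tested genes on each side of Padi2 on chromosome 4, in RefSeq gene order, 2 were called higher and 7 lower (4.50% beside 2.47% of the 9877 tested genes with a position). The lower genes were Asap3, 31 tested genes before Padi2, and Pdpn, Dhrs3, Tnfrsf1b, Zfp984, Agtrap and Fbxo44, 18, 21, 22, 24, 32 and 35 tested genes after it. The higher ones were Clic4 and Tinagl1, 44 and 98 genes before it. On the rest of the chromosome 2.21% of 407 tested genes were called. Agtrap, a binding protein of the angiotensin receptor, stood at 57.3, 67.1 and 59.2 CPM in WT and 25.0 and 23.2 CPM in PAD2KO (log2 fold change -1.34, SE 0.22, adjusted p = 0.00143), with the 2 PAD2KO libraries close together.

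The genotype difference of batch 2 differed from that of batch 1 for many of these genes. In batch 1 alone, 22 of 9917 genes (0.222%) passed, 7 higher (0.0706%) and 15 lower (0.151%). Of the 248 genes called in batch 2, 6 were also called in batch 1, all lower in both: Pdpn, Tnfrsf1b, Fbxo44, Agtrap, Zfp984 and Adamts15. All of these but Adamts15 lie 18 to 35 tested genes after Padi2 on chromosome 4. Whether that position bears on their levels was not tested. Of the 248 genes, 225 were tested in batch 1, and 99 of those had the same sign there. The interaction of genotype and batch, fitted over all 11 libraries, passed for 155 of 10731 genes (1.44%), with 64 positive (0.596%) and 91 negative (0.848%). It passed for 109 of the 248. Those genes were chosen by their difference in batch 2, which also enters the interaction, so this count is not independent of that choice. Without PAD2KO 7 the 155 became 34, without WT 3 they became 91 and without PAD2KO 3 they became 97. With length offsets 26 passed.

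Among the 58 interferon-stimulated genes the interaction passed for 15, all negative, and the list median in batch 1 was -0.05. Summed over the list, the level was 2008, 2086 and 2220.0 CPM in WT 1, WT 3 and WT 4 and 1887, 2242 and 2087 CPM in PAD2KO 1, PAD2KO 2 and PAD2KO 3. In batch 2 it was 4343, 4579 and 6703 CPM in WT and 2247 and 1430.4 CPM in PAD2KO. The WT libraries of batch 2 thus stood above the other 8, while PAD2KO 6 was just above and PAD2KO 7 below the range of batch 1. Ifi44 had 6.22, 5.66 and 4.03 CPM in WT and 7.92, 8.44 and 6.82 CPM in PAD2KO of batch 1, and Trim30a had 3.11, 6.36 and 4.83 and 5.54, 7.74 and 7.58 CPM. Dio2 had 10.1, 14.8 and 8.05 and 15.05, 11.3 and 12.9 CPM there, far below its level in WT of batch 2.

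For the contractile genes the order of levels was another. Their sum was 27684, 26782 and 26341 CPM in WT and 21832, 27694 and 25415 CPM in PAD2KO of batch 1, and 14835, 14506 and 13019.5 CPM in WT and 19806 and 22885 CPM in PAD2KO of batch 2. The WT libraries of batch 2 were the lowest of all, PAD2KO 6 was between them and batch 1, and PAD2KO 7 lay inside the range of batch 1, above PAD2KO 1 alone. The interaction passed for 10 of 30 members, all positive, and the median in batch 1 was -0.11. Myh11 had 302, 324 and 237 CPM in WT and 138, 293 and 212 CPM in PAD2KO of batch 1, and Itga1 had 182, 176 and 142 and 143, 152 and 189 CPM. Lipid synthesis genes had 9 of 30 members with a negative interaction and a median of 0.27 in batch 1. What distinguishes the batches beyond their names is not stated, and levels across them carry that difference.

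TNF and NF-kB response genes summed to 2117, 2281 and 2424 CPM in WT and 2535, 2124 and 2302 CPM in PAD2KO of batch 1. In batch 2 the sums were 10675, 12129.7 and 13636 CPM in WT and 9083 and 4079 CPM in PAD2KO. All 5 libraries of batch 2 were thus above all 6 of batch 1, PAD2KO 7 least. Of 34 members tested none passed the interaction test in edgeR, where 12 had an unadjusted p under 0.05, and 1 passed in DESeq2.

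**Figure D5:**
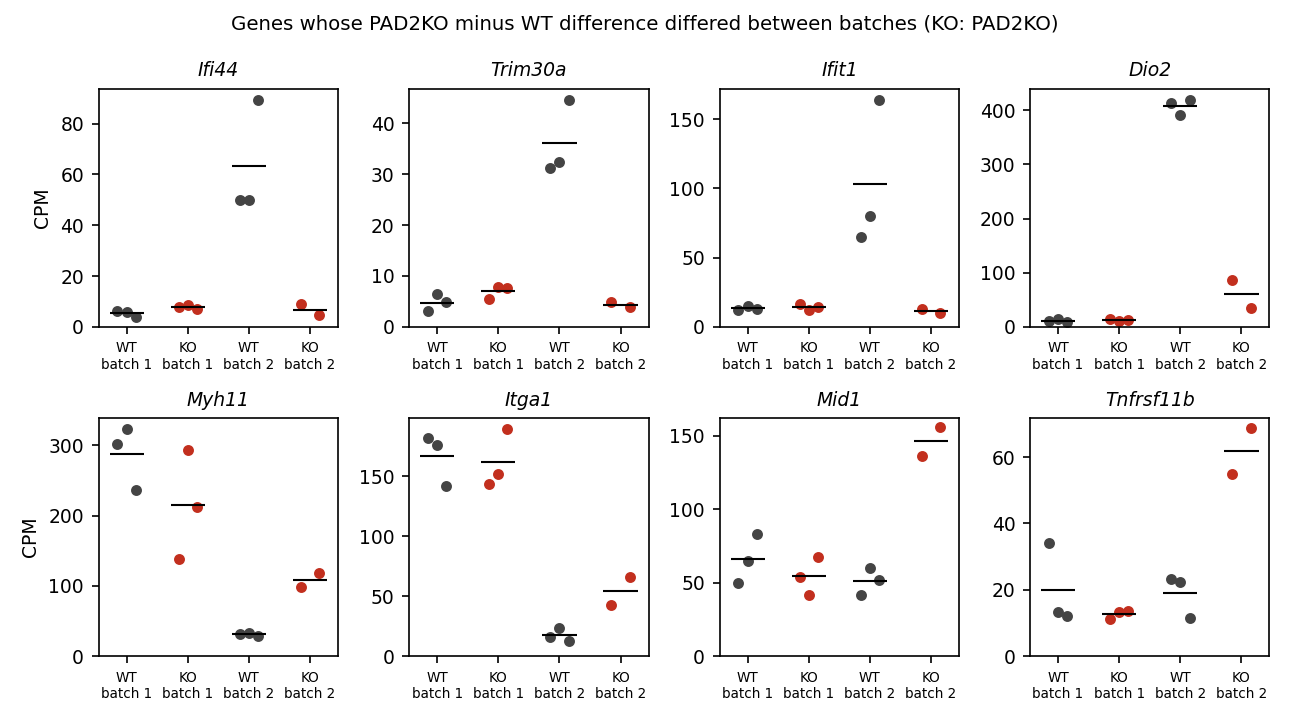
Level in CPM of 8 genes in each of the 11 libraries, by genotype and batch; black points are WT, red points PAD2KO and bars the mean of the group. Ifi44, Trim30a, Ifit1 and Dio2 are highest in WT of batch 2 among the 4 groups, while Myh11 and Itga1 are lowest in WT of batch 2, and Mid1 and Tnfrsf11b highest in PAD2KO of batch 2.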

How the data were processed

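RNA of sorted mouse neonatal lung fibroblasts was read by bulk RNA sequencing after SMARTer amplification, per the labels' protocols, which name no molecular identifiers. The authors deposited estimated counts, TPM and effective gene lengths for 11 libraries. The submitters' processing notes name fastp, Salmon 1.3.2, DESeq2 1.46.0 and the build GRCm39. The deposited TPM values (scaled per length) were not tested, and the lengths entered an alternative only. The estimated counts, unscaled per the file headers, were summed per symbol and rounded. Entries without a symbol, 5.00% to 6.40% of counts in batch 2, stayed out. Strand use in counting is not given in the notes or labels, so overlapping and antisense genes cannot be told apart.

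Batch 2 was fitted alone with edgeR 4.0.16 in R 4.3.3 (TMM, filterByExpr on genotype, robust quasi-likelihood test, Benjamini-Hochberg at 0.05, genotype as the only term). The difference between batches was the interaction of genotype and batch over 11 libraries. DESeq2 1.42.0, limma-voom (limma 3.58.1), other scalings, filters and left-out libraries were alternatives. The fits were tested on simulated counts. The comparison, the 52 gene lists and the alternatives were chosen with earlier results of these data known.

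The text names Padi genes. It then names the 15 largest rises and 15 largest falls with a mean of at least log2 CPM 3 and no overlap of groups, the 10 called genes of highest CPM, and up to 4 genes a list by p. It further names 8 genes in each direction for the batch difference and for PAD2KO 7 against PAD2KO 6, and called genes near Padi2. Genes named beyond this rule were chosen after their values were seen. These are the members of lists beyond 4, genes in no list, and the other uncalled genes. Some genes that the rule picks are not reported here.

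WT 5 and WT 6 differed beyond sampling noise (chi-square over its degrees of freedom 1.52; other pairs of a genotype 2.90 to 3.25) and were kept as 2 libraries. Gene order and promoters came from RefSeq on GRCm38.p6, a different build from that of the notes, so no gene coordinates are set against the deposited table. Of 10076 tested genes 7937 had a promoter.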

Additional observations from a re-analysis of the deposited data

Results flagged for a closer look

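The difference between PAD2KO and WT was itself different in the 2 batches for 155 genes by edgeR's interaction test. The largest positive values, batch 2 minus batch 1 on the log2 scale, were those of Tnfrsf11b (2.31), Myh11 (2.23), Nrcam (1.97), Prelp (1.90), Irag1 (1.87), Bcl2 (1.86), Mid1 (1.82) and Itga1 (1.69). Nrcam, a neuronal adhesion molecule, had 35.8, 50.9 and 36.2 CPM in WT and 26.1, 12.7 and 24.3 CPM in PAD2KO of batch 1, and 21.0, 20.04 and 24.9 CPM in WT and 34.7 and 51.0 CPM in PAD2KO of batch 2. Bcl2, the survival factor, had 14.8, 24.04 and 19.3 and 13.5, 14.1 and 13.6 CPM in batch 1 and 5.80, 8.48 and 9.35 and 19.4 and 20.1 CPM in batch 2. The largest negative values were those of Gm19680 (-5.94), Ifi44 (-3.71), Trim30a (-3.52), Ifit1 (-3.20), Ptgfr (-3.14), Dio2 (-2.96), Iigp1c (-2.70) and Gbp7 (-2.25). The value of Gm19680 rests on 0 counts in both PAD2KO libraries of batch 2 and is no bound. What sets the batches apart was not tested.

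Table entries without a gene symbol, which stayed out of the main comparison, also differed between the genotypes of batch 2. When they were kept as features of their own, 446 were tested and 8 passed, 6 higher and 2 lower in PAD2KO.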

How the results depend on the processing

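Against 248 called genes (104 higher, 144 lower), DESeq2's Wald test called 153 (57 higher), 123 of them shared, edgeR without robust estimation called 66 higher, no count filter gave 544 (246 higher, 298 lower), and length offsets gave 9 (5 higher, 4 lower). Other scalings, limma-voom (217), a spread shared by 11 libraries (313), a 10 CPM filter (233) and entries without symbol kept (212) stayed within 1.5 times. Leaving out 1 library gave 61 to 345 calls (21 to 133 higher, 40 to 212 lower), and 42 genes were called in all 5 such fits, 11 of the 31 interferon-stimulated and 6 of the 11 contractile genes among them. Of all 248, 6 were called in each of the 17 settings run for this count. In a fit with the replicate number as a replicate block, 494 genes were called (186 higher, 308 lower), 230 of them shared. Only numbers 6 and 7 are common to both genotypes, no label says that they pair the samples, and the deviations of the 2 pairs correlated at -0.00862 over 3847 genes. The 155 interactions became 323 with no count filter, 26 with length offsets and 34 to 222 with a library left out. The 47 genes over 2-fold apart between PAD2KO 6 and PAD2KO 7 became 145 at a minimum of 20 CPM and 26 at 100 CPM.

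With a library left out, list medians ranged from -2.01 to -1.48 (interferon-stimulated), 0.41 to 0.61 (contractile), -0.66 to -0.32 (lipid synthesis), -1.01 to -0.46 (class I), -1.20 to -0.22 (TNF and NF-kB), -1.89 to -0.22 (chemokines), -1.15 to -0.24 (complement), -0.64 to -0.21 (prostaglandin), -0.82 to -0.26 (IGF), -1.10 to -0.49 (adventitial), 0.83 to 1.25 (smooth muscle markers), 0.29 to 0.51 (YAP and SRF), 0.29 to 0.47 (G2/M), 0.050 to 0.13 (G1/S) and -0.11 to 0.28 (interstitial collagens). The fitted differences of Ccl2 (-2.25 to 0.057), Cxcl1 (-3.03 to 0.13) and Icam1 (-1.01 to 0.19) turned positive without PAD2KO 7 and passed the test without PAD2KO 6. Why length offsets and single libraries move the calls was not tested. The lone knockout library left by such fits is assumed to vary like the WT libraries. With 962633 to 1378867 counts a library, genes near 3 CPM or less could not be compared.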

Other observations

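Genes in none of the lists made up 146 of the 248 calls, and those given here were picked after their values were seen, so they stand for no group. Anxa1, an annexin, which binds membranes in the presence of calcium, had 372, 344 and 369 CPM in WT and 508 and 551 CPM in PAD2KO (log2 fold change 0.55, SE 0.12, adjusted p = 0.0157); it was called in 2 of the 5 fits that leave out a library. Tns1, the focal adhesion protein tensin 1, had 151, 189 and 159 CPM in WT and 271 and 365 CPM in PAD2KO (log2 fold change 0.94, SE 0.15, adjusted p = 0.00161), and Pls3, the bundling protein plastin 3, had 387, 402 and 362 CPM in WT and 549 and 713 CPM in PAD2KO (log2 fold change 0.72, SE 0.13, adjusted p = 0.00529). Fhl1, a LIM domain protein of muscle, had 329, 318 and 251 CPM in WT and 641 and 703 CPM in PAD2KO (log2 fold change 1.16, SE 0.13, adjusted p = 3.57e-05).

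Several metabolic enzymes were among the lower genes. Ldhb, a lactate dehydrogenase subunit, had 213, 238 and 258 CPM in WT and 114 and 75.8 CPM in PAD2KO (log2 fold change -1.32, SE 0.17, adjusted p = 0.000125). Xdh, xanthine dehydrogenase, had 578, 529.6 and 631 CPM in WT and 401 and 312 CPM in PAD2KO (log2 fold change -0.70, SE 0.14, adjusted p = 0.00673), and Ass1, argininosuccinate synthase, which remakes arginine from citrulline, had 91.4, 97.1 and 124 CPM in WT and 56.5 and 30.2 CPM in PAD2KO (log2 fold change -1.26, SE 0.23, adjusted p = 0.00793). Idh1 and Pcx, which feed cytosolic and mitochondrial carbon metabolism, had log2 fold changes of -0.69 (adjusted p = 0.0122) and -0.94 (adjusted p = 0.00447). Further enzymes of the interferon response outside the list, Adar, which edits double-stranded RNA, and Ube2l6, which conjugates ISG15, had log2 fold changes of -1.18 (adjusted p = 0.00942) and -1.66 (adjusted p = 0.0111).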
